A study of Mus musculus with 9 samples.

Results

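The 86 genes described here encode the protein parts of the cytosolic ribosome, found among 28764 gene symbols by name: every symbol that starts with Rpl or Rps followed by a number, together with Rplp0, Rplp1, Rplp2 and Rpsa, without pseudogenes and without the Rps6k kinases. Of these, 52 belong to the large subunit and 33 to the small subunit, and 1, Rps19bp1, fits the spelling but encodes a binding partner of a ribosomal protein. A filter on low values, which asked for 1 TPM or more in 3 or more libraries of the 9, left 84 members for testing. The 2 left out, Rpl10l and Rpl39l, stayed at or below 0.194 TPM and 1.64 TPM in every library.

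The cells were phagocytes sorted from the peritoneal wall of 3 Cx3cr1gfp/+Ccr2rfp/+ mice, an F1 cross in which the green reporter marks Cx3cr1 and the red reporter marks Ccr2. All animals had received 50 µg of dextran coupled to Cascade Blue by vein 1 day earlier and were perfused before the tissue was digested for 20 minutes. Double-negative cells (CCR2negCX3CR1neg) were dextran-positive and MHCII-negative and made up 85 to 90% of the CD11b+Ly6G- gate. CCR2-RFP cells, MHCII-positive and labelled as migratory tissue monocytes, made up 10 to 15%. CX3CR1-GFP cells, also MHCII-positive and labelled as sessile resident tissue macrophages, made up 0.5 to 1.5%. No age, sex or number of sorted cells is given in the labels used here, and each population has 3 libraries, named by the sort labels 1, 2A and 2B. Every population carries both reporter alleles, so no group of these mice has 2 intact copies of either receptor gene, and the populations differ by MHCII and dextran gating as well as by reporter.

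The ribosome reads messenger RNA and joins amino acids. Its small subunit holds the decoding site, and its large subunit holds the peptidyl transferase centre, built of RNA and surrounded by proteins that each occur in a single copy. The exception is the lateral stalk of the large subunit, where Rplp0 anchors dimers of Rplp1 and Rplp2 that recruit elongation factors. Most of these messages begin with a short run of pyrimidines at the cap, the terminal oligopyrimidine (TOP) tract, through which mTOR and Larp1 set their translation and stability as a group.

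Ribosomal protein transcripts were about 1.8 times as abundant in CCR2-RFP cells as in double-negative cells, while the libraries of CX3CR1-GFP and double-negative cells overlapped. The members' TPM values (transcript abundance corrected for length and scaled to a common total) added to 9153, 8215 and 10791 in the double-negative libraries of sorts 1, 2A and 2B. In the same order of sorts the CCR2-RFP sums were 15749, 16348 and 17606 TPM, and the CX3CR1-GFP sums 8413, 8455 and 7953 TPM. All 3 CCR2-RFP libraries lay above the other 6, and the double-negative and CX3CR1-GFP ranges overlapped. The means were 9386 ± 1304, 16568 ± 948 and 8274 ± 278 TPM (SD, n = 3), a ratio of 1.77 for CCR2-RFP and 0.881 for CX3CR1-GFP, each to double-negative. In sorted bulk samples, fewer cells of a type and less RNA per cell cannot be told apart.

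The sums of both subunits were in the same order. Taking double-negative, CCR2-RFP and CX3CR1-GFP cells in turn, the large-subunit sum was 5368 ± 718, 9563 ± 564 and 4695 ± 150 TPM, and the small-subunit sum 4016 ± 587, 7001 ± 388 and 3576 ± 152 TPM (SD, n = 3). The ratio of small to large differed little, at 0.747 ± 0.0117, 0.732 ± 0.00866 and 0.762 ± 0.0226, with the double-negative range overlapping both others and the CCR2-RFP range (at most 0.741) lying just below that of CX3CR1-GFP (at least 0.744).

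**Figure D1:**
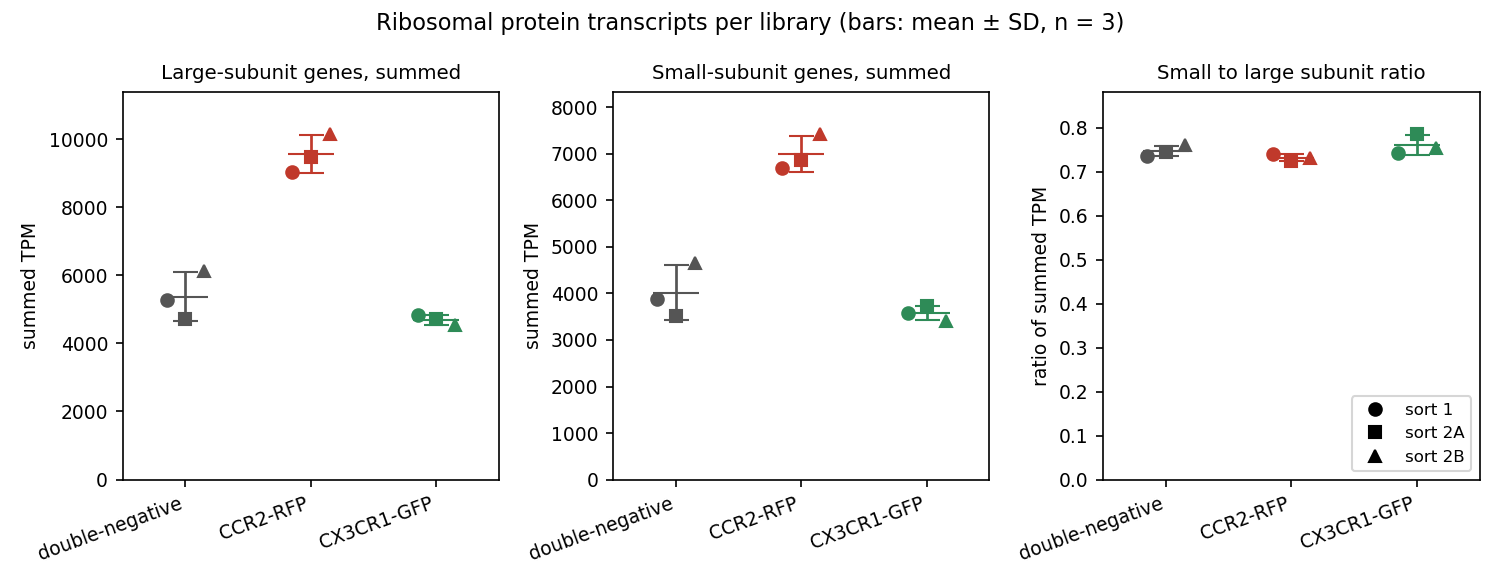
Summed TPM of the 52 large-subunit genes (left) and 33 small-subunit genes (middle), and the ratio of small to large sums (right), per library; symbols give the sort label, horizontal bars the mean and whiskers the SD of 3 libraries. The 3 CCR2-RFP libraries lie above the other 6 in both sums, and the ratio stays between 0.724 and 0.787 in every library.

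A few facts of the libraries stand beside these sums. The listed symbols added to 324050 to 357087 TPM (double-negative), 356787 to 382828 (CCR2-RFP) and 278579 to 301604 (CX3CR1-GFP), which is 27.9 to 38.3% of the total that TPM are scaled to, so most of each total lies in rows not analysed here. Members took 2.75 ± 0.346%, 4.49 ± 0.182% and 2.90 ± 0.225% of these listed sums. The Siglece row alone held 102783 to 123879, 103398 to 115600 and 61107 to 87908 TPM of the sums in the same order, so these percentages depend on it. Ccr2 was 95.4 to 115 TPM in the CCR2-RFP libraries and at most 6.68 TPM elsewhere, and Cx3cr1 was 4.13 to 16.4 TPM in CX3CR1-GFP libraries and listed at 0 in the other 6. All 6 macrophage markers (Csf1r, Adgre1, Mertk, Cd68, Fcgr1, Mrc1) were detected and summed to 700 to 795 TPM (double-negative), 273 to 327 (CCR2-RFP) and 627 to 712 (CX3CR1-GFP). The 6 monocyte markers summed to 38.8 to 60.9, 316 to 371 and 25.1 to 47.0 TPM in the same order, and the 6 dendritic cell markers to 27.5 to 63.3, 109 to 158 and 11.8 to 16.1 TPM, so both were highest in CCR2-RFP, as the members were. Mast cell markers (5 genes) ran to 6.58, 34.0 and 4.19 TPM. Skeletal muscle markers (6 genes) were uneven: 807 TPM in CCR2-RFP 2A and 1383 in CX3CR1-GFP 2A, against 33.1 to 292 in the other 7 libraries, and the part of any of these lists in the members' levels was not tested. Summed markers reached 125 TPM for fibroblasts, 78.8 for adipocytes, 23.7 for neutrophils, 9.15 for T and NK cells and 7.10 for mesothelium. They reached 6.74 for endothelium, 5.03 for B cells, 4.63 for erythroid cells and platelets and 1.51 for eosinophils. Of the 5 eosinophil markers 1, Prg2, was at 0 throughout. Mitochondrially encoded mRNA went the other way, with 5 of 6 tested genes (8 listed) lower in CCR2-RFP (against double-negative) and a median log2 fold change of -0.89. Of all genes tested 9.88% were called lower in that comparison, and of the 1140 genes outside the family with a mean of at least 20 TPM 20%.

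The start regions of the members most relevant to the comparisons are shown first, because the TOP tract lies there. RefSeq start windows were matched by symbol for 65 of the 86 members, 77 windows in all (GRCm38.p6). Each line below runs 5′ to 3′ on the strand of the gene, from 20 bases before the annotated start to 30 bases from it onward, with the longest unbroken run of C and T in capitals. Shown are the stalk proteins Rplp0 and Rplp2, Rpsa, and members whose level departed from the rest of the family or that were called in CX3CR1-GFP cells. Rplp1, Rps29 and Rps4l, which also departed from the family, are not among those shown.
Rplp0: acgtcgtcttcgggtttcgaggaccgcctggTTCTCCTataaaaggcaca
Rplp2: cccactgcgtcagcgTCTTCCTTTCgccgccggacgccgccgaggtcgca
Rpsa: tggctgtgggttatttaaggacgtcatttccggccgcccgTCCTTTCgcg
Rpl4: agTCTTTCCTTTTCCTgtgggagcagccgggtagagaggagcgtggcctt
Rps26: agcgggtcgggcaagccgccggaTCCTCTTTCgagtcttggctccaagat
Rpl34: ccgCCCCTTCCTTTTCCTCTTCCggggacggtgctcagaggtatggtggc
Rpl41: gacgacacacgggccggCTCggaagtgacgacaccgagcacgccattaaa
Rps3: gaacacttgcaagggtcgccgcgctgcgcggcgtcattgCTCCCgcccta
Rpl7l1: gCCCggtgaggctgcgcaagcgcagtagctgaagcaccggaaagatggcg

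These windows lie at chr5:115559447-115559496 (plus strand) for Rplp0, chr7:141447631-141447680 (plus) for Rplp2 and chr9:120127746-120127795 (plus) for Rpsa. They lie at chr9:64173367-64173416 (plus) for Rpl4, chr10:128626477-128626526 (minus) for Rps26 and chr3:130730308-130730357 (minus) for Rpl34, 1 of its 2 annotated starts; the other holds a run of 8. The last are chr10:128549139-128549188 (minus) for Rpl41, chr7:99483680-99483729 (minus) for Rps3 and chr17:46782627-46782676 (minus) for Rpl7l1. The run is 14 bases in Rpl4 and 20 in Rpl34, and 5 in Rps3 and 3 in both Rpl41 and Rpl7l1. The runs of Rpl4, Rpl41 and Rpl7l1 end before the annotated start, most of the Rpl34 run lies before it, and that of Rps3 lies after it. Runs were counted on either side of the start, so a run here need not be a TOP tract. A run of at least 8 bases was present in 35 of the 77 member windows (45.5%) and in 6226 of 32851 windows of all genes (19.0%). In the full 300-base windows, CGGAAG, the core of ETS-family sites, stood on either strand in 61.0% of member windows and 16.9% of all. Read on the other strand it is CTTCCG, whose first bases can fall inside a C and T run. CACGTG (the E-box) stood in 10.4% and 7.15%, and TATAAA in 9.09% and 13.6%, both counted on both strands. A match in letters is a description of the window, and an annotated start can lie some bases from the one used in these cells.

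In CCR2-RFP against double-negative cells, nearly the whole family was higher. Of 84 members, 73 rose, 0 fell and 11 were not called, where a call means an adjusted p below 0.05 in limma over all 10136 genes tested. Among all genes tested 14.9% were called higher and 9.88% lower. By subunit, 46 of 50 large-subunit and 27 of 33 small-subunit genes rose. The median log2 fold change of the members was 0.86 (1.81-fold on the log2(TPM + 1) scale), beside 0.09 over all genes. Members are abundant, and among the 1140 other genes with a mean of at least 20 TPM 30.1% were called higher and 20% lower. At an unadjusted p below 0.05 the members' counts were 76 higher and 1 lower, beside 2123 and 1405 of all 10136 genes tested (limma). In 78 of the 84 members every CCR2-RFP library exceeded every double-negative one, a separation found in 25.8% of all genes tested.

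**Figure D2:**
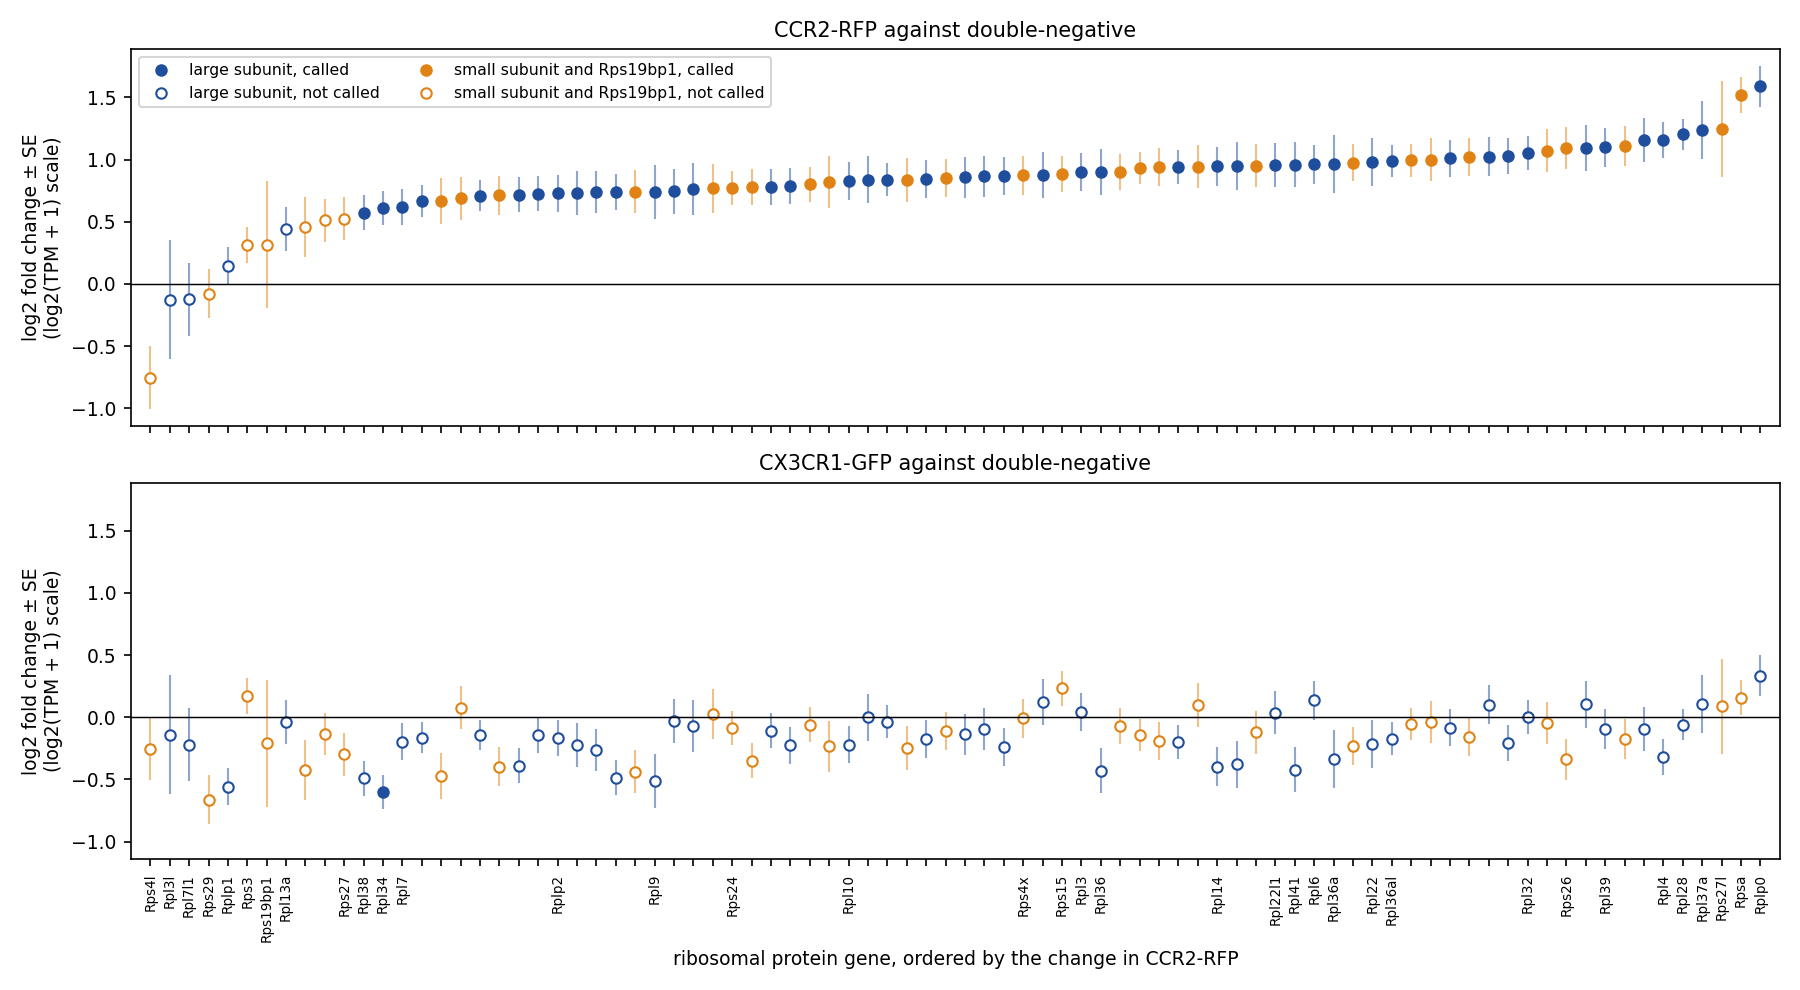
Log2 fold change with its SE for each of 84 members, in CCR2-RFP (top) and CX3CR1-GFP (bottom) against double-negative cells, both ordered by the top panel; filled points were called at adjusted p below 0.05, colours give the subunit, and labels are given for stalk proteins, Rpsa, paralogues, members at the extremes of level or change and those called relative to the family. In the top panel 73 points are filled, all above 0; in the bottom panel only Rpl34 is filled, and the 2 panels share the double-negative libraries.

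The steepest rises were in Rplp0 and Rpsa. Rplp0 (chromosome 5, 115559467 to 115563727, plus strand, GRCm38), the anchor of the stalk, stood at 43.8, 43.0 and 61.7 TPM in the double-negative libraries, at 136, 166 and 145 in the CCR2-RFP ones and at 59.0, 62.1 and 64.5 in those of CX3CR1-GFP. CCR2-RFP stood apart from both other populations, which overlapped each other. Its log2 fold change against double-negative was 1.59 ± 0.16 (SE), 3.01-fold, with adjusted p = 5.62e-05 in limma. Rpsa (chromosome 9, 120127689 to 120132369, plus strand), a small-subunit protein also known as the laminin receptor precursor, had 48.4, 48.6 and 55.7 TPM in the double-negative libraries, 140, 147 and 155 in the CCR2-RFP ones and 49.2, 66.7 and 55.7 in those of CX3CR1-GFP. It again separated CCR2-RFP alone, by 1.52 ± 0.14 on the log2 scale (2.86-fold, adjusted p = 3.43e-05, limma). Rps27l, Rpl37a and Rpl28 followed, 2.37-fold, 2.36-fold and 2.30-fold higher, with adjusted p of 0.0384, 0.00287 and 6.15e-05 in limma. The call of Rps27l held in 12 of 22 alternatives and was lost without double-negative 1 or 2A (adjusted p = 0.125 for both), CCR2-RFP 2A (0.0793) or CCR2-RFP 2B (0.144, the highest; limma). Rps27l, a paralogue of Rps27 known as a p53 target, was the least even member of the family, with 37.4, 50.4 and 78.5 TPM in CCR2-RFP and 17.2, 17.1 and 34.5 in double-negative libraries.

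Of the 5 members with the highest mean over the 9 libraries, 4 rose. The highest, Rplp1, did not pass the test (1.10-fold, adjusted p = 0.56, limma), and its libraries are given with the stalk. Rpl10, which helps shape the peptidyl transferase region, held 332, 338 and 436 TPM in the double-negative libraries and 610, 683 and 658 in CCR2-RFP libraries (1.77-fold, adjusted p = 0.0026, limma). Rps24 rose 1.71-fold, Rpl32 2.08-fold and Rps26 2.13-fold, with adjusted p of 0.00223, 0.000282 and 0.000768 in limma. Rps26 sits at the exit channel of the messenger RNA. The libraries of the 2 populations did not overlap for any of the 4 genes that rose.

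The 11 members that were not called include 4 of low level. Rpl3l, Rpl7l1, Rps4l and Rps19bp1 had means under 10 TPM. Among the abundant ones, most had values above 0 without passing the test. Rps27 was at 0.52 (adjusted p = 0.0505) and was called with the sort label as a block (adjusted p = 0.0278, limma). Rps14 was at 0.51 (0.0537), Rps21 at 0.46 (0.212), Rpl13a at 0.44 (0.105) and Rps3 at 0.31 (0.155). Rplp1 and Rps29 had the log2 values nearest to 0 of the abundant members, 0.14 ± 0.15 and -0.08 ± 0.20 (SE).

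In CX3CR1-GFP against double-negative cells, the family was close to level. Of 84 members, 0 rose, 1 fell and 83 were not called in limma, where 1.16% of all genes tested were called higher and 1.61% lower. At an unadjusted p below 0.05 the counts were 0 higher and 15 lower, beside 579 and 943 of all 10136 genes tested (limma). Among the 1140 other genes with a mean of at least 20 TPM they were 79 and 246. The median log2 fold change was -0.15, beside -0.03 over all genes, and 16 members had values above 0 and 68 below. In 11 members every CX3CR1-GFP library was below every double-negative one, a separation found in 12.9% of all genes tested.

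The gene called was Rpl34 (chromosome 3, 130726831 to 130730398, minus strand), a large-subunit protein, at 66.4, 56.9 and 68.8 TPM in double-negative and 43.0, 42.8 and 39.3 in CX3CR1-GFP libraries. The 2 sets did not overlap. Its log2 fold change was -0.60 ± 0.13 (SE, adjusted p = 0.0434, limma). The call was lost with the sort label as a block (adjusted p = 0.0731) and without any one of the 9 libraries (0.0601 to 0.172), and it held in 3 of 22 alternatives (0.0251 to 0.221). The lowest other values were Rps29 at -0.66 (adjusted p = 0.12), Rplp1 at -0.56 (0.095), Rpl9 at -0.51 (0.299) and Rpl38 at -0.49 (0.11), all in limma. The highest were Rplp0 at 0.33 (0.365), Rps15 at 0.23 (0.492), Rps3 at 0.17 (0.652), Rpsa at 0.16 (0.676) and Rpl6 at 0.13 (adjusted p = 0.736, limma).

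In CX3CR1-GFP against CCR2-RFP cells, the family was lower almost throughout, with the CCR2-RFP libraries shared with the first comparison. Of 84 members, 0 rose, 77 fell and 7 were not called, while 8.96% of all genes tested were called higher and 17.3% lower in limma. At an unadjusted p below 0.05 the counts were 0 higher and 79 lower, beside 1364 and 2453 of all 10136 genes tested (limma). The median log2 fold change was -1.03, beside -0.11 over all genes. In 78 members every CX3CR1-GFP library was below every CCR2-RFP one, against 25.2% of all genes. Rpl4 fell most, from 245, 237 and 255 TPM in CCR2-RFP to 89.0, 99.1 and 76.8 in CX3CR1-GFP libraries, or -1.47 ± 0.14 on the log2 scale (SE, adjusted p = 5.13e-05, limma). Rps26, Rpl41, Rpsa and Rpl14 were next, at -1.43, -1.38, -1.36 and -1.34, with adjusted p from 7.91e-05 to 0.000349 in limma. The values nearest to 0 or above it were Rps4l at 0.50, Rpl3l at -0.02, Rpl7l1 at -0.10, Rps3 at -0.14 and Rpl13a at -0.48, none of them called. Rplp1, not called in the first comparison, fell here by 0.70 on the log2 scale (adjusted p = 0.00688, limma).

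Within a population, members covered a wide range of levels. Among the 80 members with a mean of at least 10 TPM, the double-negative means ran from 23.0 TPM (Rps27l) to 483 (Rplp1), a 21-fold range. In CCR2-RFP cells they ran from 50.2 (Rpl36) to 651 (Rpl10), 13.0-fold, and in CX3CR1-GFP cells from 19.5 (Rpl36) to 326 (Rplp1), 16.7-fold. TPM are per length, so these are comparisons of transcript number, as far as the counting could tell members from their copies. The order was much the same in all populations, with Spearman correlations over 84 members of 0.952 to 0.971, a description of genes that share libraries. The CV between the 3 libraries of the median member was 15.6% (double-negative), 9.16% (CCR2-RFP) and 11.5% (CX3CR1-GFP), and it was highest for Rps27l in each of them (37.9 to 51.5%).

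Members of a ribosome are used in fixed numbers, so the changes were next read against the family itself. TPM were rescaled so that the geometric mean of the 83 members above 0 in all 9 libraries was the same in each library, and the same model was fitted again. Relative to the family mean, 2 members were higher and 4 lower when CCR2-RFP was set against double-negative cells, where 4.86% of all genes tested were called higher and 31.0% lower. In CX3CR1-GFP against double-negative cells 0 and 0 were called, with 1.46% and 0.829% of all genes (2 and 5 members at an unadjusted p below 0.05, limma). In CX3CR1-GFP against CCR2-RFP cells 3 were higher and 3 lower, with 41.0% and 4.30% of all genes. Ratios between members do not depend on the total to which TPM are scaled. Since the family's own change is removed, all other genes shift the opposite way, and the shares over all genes are uneven for that reason. The adjustment runs over all genes tested, so a member passes more easily where more genes are called. Counts of called members are therefore not comparable between the comparisons. At an unadjusted p below 0.05 in limma, 7 members were higher and 5 lower in CCR2-RFP against double-negative cells (620 and 4175 of all 10136 genes). In CX3CR1-GFP against CCR2-RFP cells 4 were higher and 6 lower (5013 and 523 of all genes).

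**Figure D3:**
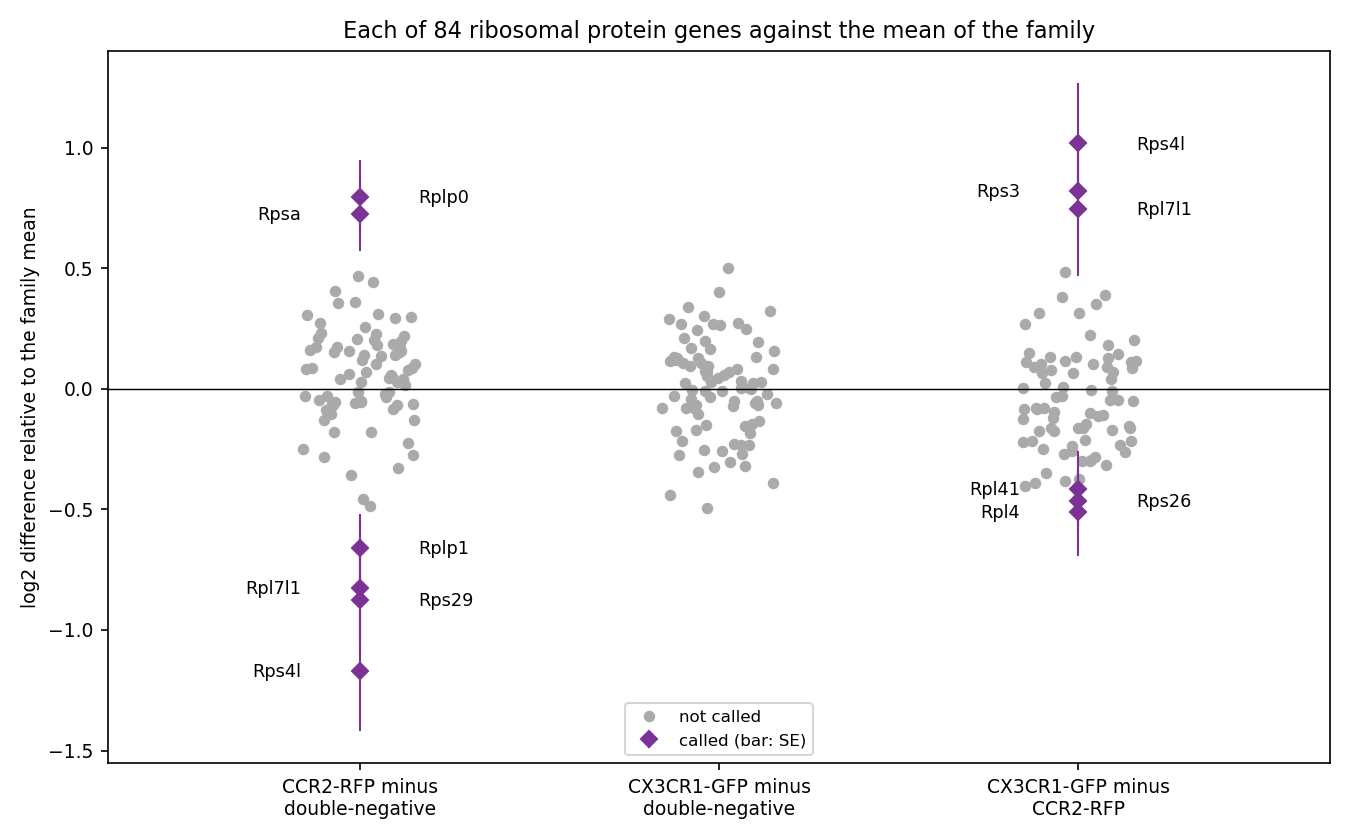
Log2 difference of each of 84 members relative to the family mean for the 3 comparisons; grey points were not called, and named diamonds with SE bars were called at adjusted p below 0.05 in limma. The grey points lie between -0.50 and 0.50, and the 2 comparisons with CCR2-RFP share its libraries.

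The stalk was uneven. Relative to the family, Rplp0 was higher in CCR2-RFP against double-negative cells by 0.80 ± 0.15 (log2, SE, adjusted p = 0.00249) and Rplp1 lower by a log2 value of -0.66 ± 0.14 (adjusted p = 0.00408, limma). Rplp2 lay at -0.07 ± 0.17 (0.767). The ratio of Rplp0 to Rplp1 TPM restates this without any fit, from the same libraries, and is not separate evidence. The double-negative libraries gave 0.0908, 0.103 and 0.112, the CCR2-RFP ones 0.295, 0.320 and 0.235 and those of CX3CR1-GFP 0.193, 0.183 and 0.195. The 3 populations did not overlap in this ratio, and CX3CR1-GFP lay between the others. Rplp1 (chromosome 9, 61913284 to 61914542, minus strand) itself read 482, 416 and 549 TPM in the double-negative libraries, 462, 520 and 617 in the CCR2-RFP ones and 306, 340 and 332 in those of CX3CR1-GFP, so the first 2 populations overlapped. The Rplp2 to Rplp1 ratio was 0.209 ± 0.0186, 0.315 ± 0.0358 and 0.276 ± 0.0453 (SD, n = 3).

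Rpsa and Rps29 showed a similar contrast in the small subunit. Relative to the family, Rpsa was higher by 0.72 ± 0.16 (adjusted p = 0.00463) and Rps29 lower, at -0.87 ± 0.19 (0.00478), in CCR2-RFP against double-negative cells (log2, SE, limma). Rps29 (chromosome 12, 69157722 to 69159186, minus strand), a zinc-binding protein near the decoding site, read 235, 203 and 212 TPM in the double-negative libraries, 181, 224 and 213 in the CCR2-RFP ones and 151, 170 and 98.6 in those of CX3CR1-GFP. The first 2 populations overlapped while most of the family did not. The ratio of Rpsa to Rps29 ran 0.206, 0.240 and 0.262 in the double-negative libraries, 0.773, 0.659 and 0.729 in the CCR2-RFP ones and 0.327, 0.392 and 0.565 in those of CX3CR1-GFP, again without overlap. This ratio too restates the opposite calls of its genes in the same libraries. These 4 genes, Rplp0, Rplp1, Rpsa and Rps29, were called relative to the family in each of 16 alternatives.

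Rps3, a small-subunit protein at the entry of the messenger RNA that also acts in DNA repair, had population means of 194, 241 and 220 TPM. The double-negative libraries held 185, 201 and 194 TPM, the CCR2-RFP ones 255, 252 and 217 and those of CX3CR1-GFP 237, 180 and 242. CCR2-RFP lay above double-negative without overlap, and it overlapped CX3CR1-GFP. Relative to the family it was higher in CX3CR1-GFP than in CCR2-RFP cells by 0.82 ± 0.20 (adjusted p = 0.00699) and at -0.48 ± 0.20 in CCR2-RFP against double-negative cells (0.0742; log2, SE, limma). In the first of these it was called in all 16 alternatives. Rpl4, Rps26 and Rpl41 were lower in CX3CR1-GFP than in CCR2-RFP cells relative to the family, at -0.51, -0.46 and -0.41 (adjusted p = 0.0391, 0.0166 and 0.0481, limma), and were called in 9, 13 and 4 of 16 alternatives. With the sort label as a block, the calls of Rpl41 (0.0562) and Rpl7l1 (0.0538) in this comparison were lost.

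**Figure D4:**
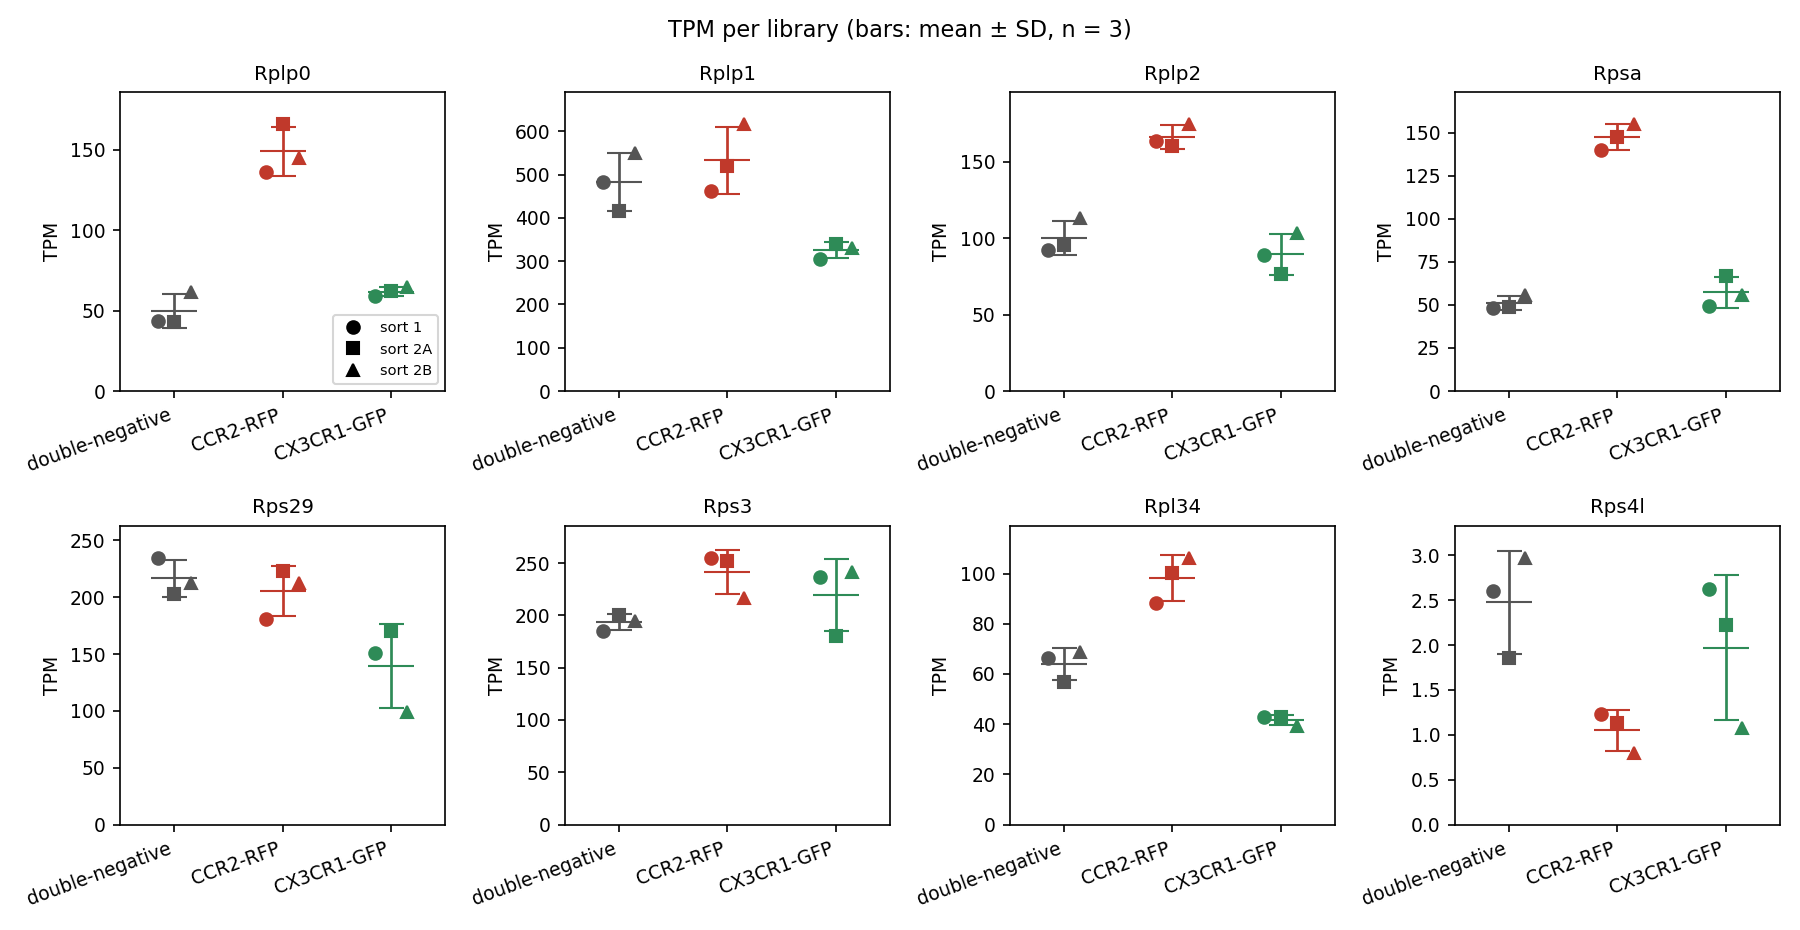
TPM per library (points, symbols give the sort label) with the mean and SD of 3 libraries for 8 members. Rplp0, Rplp2, Rpsa and Rpl34 are highest in CCR2-RFP without overlap, Rplp1 and Rps29 overlap between double-negative and CCR2-RFP, and Rps4l is lower in CCR2-RFP than in any double-negative library.

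Paralogues of the same protein can be set beside their partners. Rpl22l1, a paralogue of Rpl22, had means of 26.5 ± 1.42, 52.4 ± 4.17 and 27.7 ± 6.19 TPM (SD, n = 3) in double-negative, CCR2-RFP and CX3CR1-GFP cells, and Rpl22 63.2 ± 11.5, 124 ± 6.09 and 54.9 ± 14.1. Both rose in CCR2-RFP (adjusted p = 0.0025 and 0.00389, limma), and their ratio was 0.427 ± 0.0588, 0.423 ± 0.0531 and 0.509 ± 0.0624 (SD, n = 3). Rpl36al and Rpl36a also rose together, 1.99-fold and 1.96-fold (adjusted p = 0.000323 and 0.0118, limma). The ratio of Rps27l to Rps27 was 0.0874, 0.122 and 0.160 in the double-negative libraries, 0.155, 0.203 and 0.265 in the CCR2-RFP ones and 0.117, 0.295 and 0.111 in those of CX3CR1-GFP, so each population overlapped both others.

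Rps4l, an autosomal relative of the X-linked Rps4x, did not rise with its partner. The double-negative libraries held 2.60, 1.85 and 2.98 TPM of Rps4l, the CCR2-RFP ones 1.23, 1.13 and 0.796 and those of CX3CR1-GFP 2.62, 2.23 and 1.07, while Rps4x rose from 136 ± 24.3 to 247 ± 15.7 TPM in CCR2-RFP. CCR2-RFP lay below double-negative without overlap. Relative to the family, Rps4l was lower in CCR2-RFP by a log2 value of -1.17 ± 0.25 (adjusted p = 0.00461) and higher in CX3CR1-GFP than in CCR2-RFP by 1.02 ± 0.25 (0.00815, SE, limma). The size rests on values near the pseudocount and ran from -1.88 to -0.46 over the alternatives. Unscaled, its log2 fold change was -0.75 (adjusted p = 0.0534), with a call lower in 9 of 21 alternatives.

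Rpl7l1, a paralogue of Rpl7 with a part in ribosome assembly, held at 9.03 ± 1.35, 8.36 ± 2.28 and 7.95 ± 3.10 TPM, so it was lower relative to the family in CCR2-RFP (log2 value -0.82 ± 0.28, adjusted p = 0.0393, limma). That call was lost without the filter on low values (0.106) and without CCR2-RFP 2A (0.14), CCR2-RFP 2B (0.0686), double-negative 1 (0.115), double-negative 2A (0.0847) or double-negative 2B (0.0603). Rpl3l, the form of Rpl3 known from heart and skeletal muscle, read 0.0617, 3.83 and 0.479 TPM in the CCR2-RFP libraries, 0.923, 1.58 and 0.476 in the CX3CR1-GFP ones and 0.964, 0.949 and 1.57 in the double-negative ones. Its highest value and its highest in CX3CR1-GFP are both in sort 2A, where muscle markers were also highest in these 2 populations; their part in the value was not tested.

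Other genes of the translation apparatus give the setting of these values. Fau, made as a fusion with a ubiquitin-like protein, and Rack1 encode small-subunit parts under other names. Both rose in CCR2-RFP against double-negative cells, by 1.77-fold and 2.10-fold (adjusted p = 0.00327 and 0.000187, limma). Of 23 other TOP messages 18 rose and 0 fell, with a median log2 fold change of 0.88. Of all genes tested 14.9% were called higher and 9.88% lower. Of the 1140 genes outside the family with a mean of at least 20 TPM, 30.1% and 20% were. The TOP list holds Fau and Rack1 again. It also holds 5 elongation factors, 4 initiation factors and 1 biogenesis gene (Npm1) that are counted below too, so the counts are not separate. Of the 10 that stand in no other list, 7 rose and 0 fell. Among the genes that rose were the intermediate filament gene Vim (190 ± 28.8 to 784 ± 11.3 TPM), the poly(A)-binding protein Pabpc1 (61.5 ± 1.44 to 147 ± 14.4 TPM) and the histone chaperone Nap1l1 (33.7 ± 1.72 to 77.3 ± 5.77 TPM), SD over 3 libraries. In CX3CR1-GFP against CCR2-RFP cells 18 of these 23 fell and 0 rose. There 17.3% of all genes tested were called lower and 8.96% higher, and of those 1140 genes 35.3% and 15.4%.

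Elongation factors rose in 5 and fell in 1 of 10 genes in CCR2-RFP cells, and among the 5 outside the TOP list 1 rose and 1 fell. Eef1a1, which brings aminoacyl-tRNA to the ribosome, went from 757 ± 50.5 to 1482 ± 127 TPM, and Eef2, which moves the ribosome along the message, from 83.6 ± 12.3 to 179 ± 10.4 TPM. The 1 that fell was Eef2k, the kinase that inactivates Eef2, from 9.02 ± 0.544 to 1.51 ± 0.815 TPM (log2 fold change -2.05 ± 0.24, adjusted p = 0.000149, limma). Initiation factors rose in 14 and fell in 0 of 41, with a median of 0.43, and in 11 and 0 of the 37 outside the TOP list. Eif3k, Eif3h and Eif3f, all parts of the eIF3 complex, were among those that rose. Beside the counts of both lists stand 14.9% higher and 9.88% lower of all genes tested. Of the 1140 genes outside the family with a mean of at least 20 TPM, 30.1% were higher and 20% lower.

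Genes that build ribosomes were counted in the same comparison. Of these, 11 of 61 tested rose and 1 fell, with a median log2 fold change of 0.25, a share of rises close to the 14.9% of all genes tested. Fbl, the methyltransferase of box C/D particles, went from 5.75 ± 1.29 to 14.2 ± 2.73 TPM, and Npm1, a chaperone of the nucleolus, from 48.6 ± 6.92 to 90.6 ± 14.4 TPM, and Utp18 rose 2.61-fold while Utp15 fell, 0.581-fold (adjusted p = 0.000434 and 0.00813, limma). Utp18 and Utp15 are both parts of the small-subunit processome. Mitochondrial ribosomal proteins rose in 6 and fell in 0 of 77, with a median of 0.33, so a smaller share rose than the 14.9% of all genes. The count was higher for nuclear-encoded respiratory chain genes, with 21 higher and 0 lower of 85 and a median of 0.47. The difference in shares between these lists was not tested. Of 20 genes of the mTOR arm and TOP regulators 3 rose and 2 fell, which is the background share in both directions (14.9% and 9.88% of all genes tested). Pdcd4, an inhibitor of the helicase Eif4a1, rose 4.86-fold and Deptor, an inhibitor of mTOR, fell from 15.6 ± 0.53 to 7.75 ± 1.15 TPM (adjusted p = 1.67e-05 and 0.00145, limma).

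In CX3CR1-GFP against double-negative cells the lists of TOP messages (23), elongation factors (10), initiation factors (41), mitochondrial ribosomal proteins (77) and biogenesis genes (61) had 0 genes called in either direction in limma. At an unadjusted p below 0.05 these lists held 2, 0, 4, 9 and 2 lower genes and 0, 0, 0, 1 and 1 higher genes, in that order. Of all 10136 genes tested, 943 were lower and 579 higher at that level. Eif4ebp1, the mTOR target that holds back cap-dependent initiation, was the 1 gene of the mTOR list called, at 9.66 ± 0.902 and 5.08 ± 1.09 TPM (log2 fold change -0.82 ± 0.18, adjusted p = 0.0395, limma). Ndufa13, a subunit of respiratory complex I, was the 1 of 85 respiratory chain genes called (log2 fold change -1.01 ± 0.21, adjusted p = 0.0331, limma). Of 6 mitochondrially encoded and 20 reference genes 0 were called (1 and 6 at an unadjusted p below 0.05, all lower). Of 7 ribosomal protein pseudogene rows deposited, 0 passed the filter.

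How much of the family's rise remains depends on what TPM are scaled to. Against double-negative cells, the members called higher in CCR2-RFP numbered 73 with the deposited TPM, 69 with listed symbols rescaled to a common sum and 72 with median-of-ratios scaling. They numbered 63 when Siglece, Rn18s, mitochondrial and ribosomal protein genes were left out of the total, 52 with quantile normalization and 47 with scaling to 20 reference genes. A scaling on other protein-coding genes, added after the data were seen, also gave 47. The median log2 fold change fell from 0.86 to between 0.53 and 0.80, and the distance between the members' median and that of all genes ran from 0.57 to 0.77. Of the 73 calls, 45 held under all 6 scalings. The reference genes are not level themselves: 8 of 20 were called higher and 3 lower in CCR2-RFP, among them Actb (2.16-fold higher) and Tfrc (0.188-fold). The median of all genes shifted from 0.09 to -0.15 with these genes and to -0.14 with other protein-coding genes.

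In CX3CR1-GFP against CCR2-RFP cells, 77 members fell with the deposited TPM and 40 to 75 with the 6 scalings, and 40 fell in all of them. Of all genes tested, 17.3% were called lower and 8.96% higher with the deposited TPM. With the 6 scalings these shares were 7.66 to 15.4% and 9.68 to 21.8%. The members' median was -1.03 and between -0.49 and -0.96, and the median of all genes moved from -0.11 to as far as 0.29. In CX3CR1-GFP against double-negative cells 0 members were called in either direction under any of the 6 scalings, and the sign of the median was not fixed: it was -0.15 with the deposited TPM, 0.09 with listed symbols rescaled and 0.05 with reference genes. There 1.17 to 2.00% of all genes tested were called higher and 0.789 to 1.35% lower with the 6 scalings. Rps4l was the member that fell in CCR2-RFP cells against double-negative under 5 of the scalings, and the 1 that rose in CX3CR1-GFP against CCR2-RFP cells with reference genes.

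**Figure D5:**
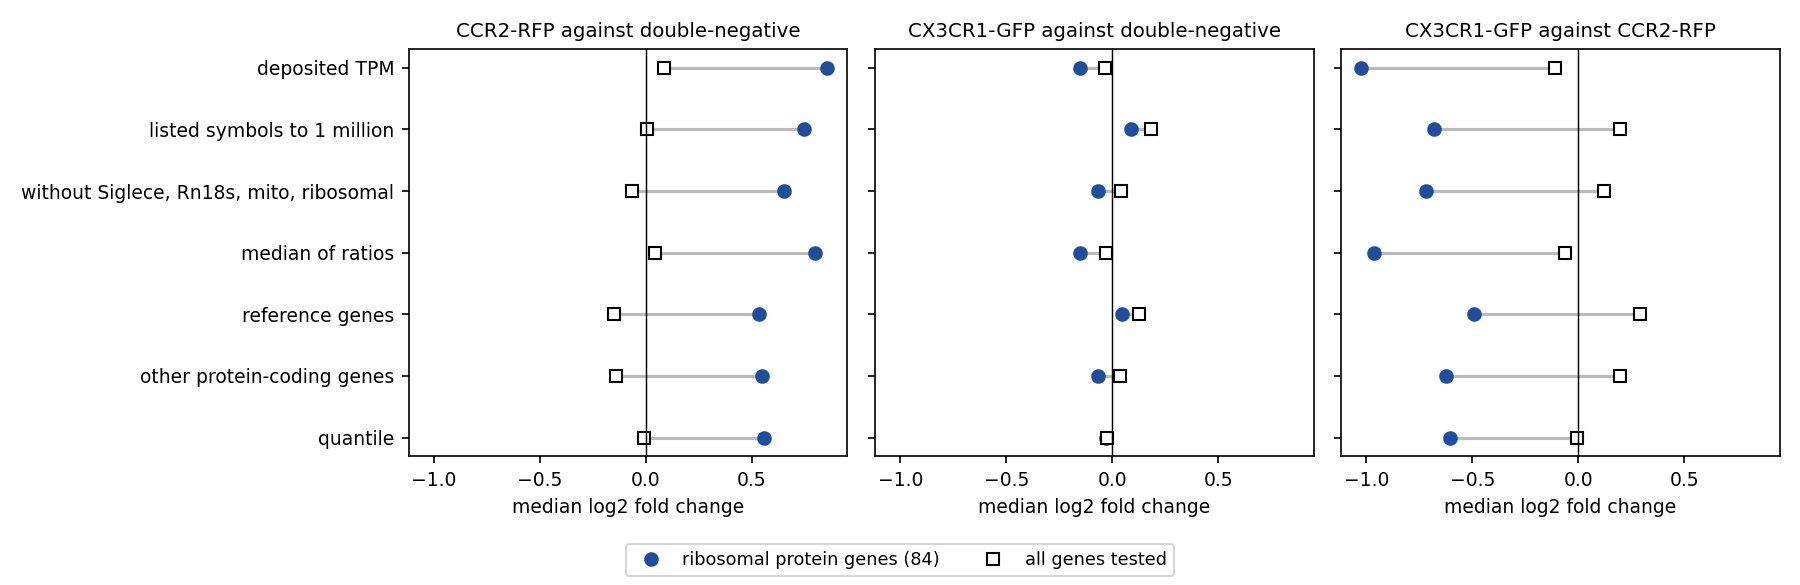
Median log2 fold change of 84 members (filled circles) and of all genes tested (open squares) for the deposited TPM and 6 other scalings, in the 3 comparisons. In both comparisons with CCR2-RFP the members' median keeps its side of 0 and lies farther from 0 than that of all genes under every scaling shown; in CX3CR1-GFP against double-negative it lies on either side of 0.

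Reads of these genes are hard to place, since mammalian genomes hold many processed copies of them. Of the 31-base words in the main GENCODE M21 transcript of each member, a median of 54.3% also occur in transcripts of other genes, pseudogenes included, and 47 of 85 annotated members share over 50%. Rplp1 shares 75.1%, Rplp0 53.3%, Rpsa 46.1%, Rps29 39.2% and Rps3 8.95%. How the authors' counting split such reads is not given in the sources used here, so the levels of single members are less certain than those of the family. Among the 7 tested members that share at most 10%, 4 rose in CCR2-RFP against double-negative cells, with a median log2 fold change of 0.74, and among the 47 that share over 50%, 44 rose, with a median of 0.88. Over 83 annotated members the Spearman correlation of this fold change was 0.12 with the shared percentage, 0.16 with transcript length and -0.23 with GC content, given as descriptions. A snoRNA gene lies inside 30 members. These had a median of 0.84 and 28 calls higher, against 0.87 and 45 calls among the 53 without one.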

How the data were processed

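The authors deposited TPM per gene symbol, 1 column per library, and the submitters' processing notes name mm10, bcl2fastq 2.18, cutadapt 1.8.3 and Salmon 0.11.3; libraries came from 1 ng of total RNA, read as 75-base pairs, per the labels' protocols. The sources used here give no annotation, strand or way of summing transcripts to genes. TPM keep no counts, so depth is unknown and the 3 libraries per population set the precision. Populations follow title, source name and column heading; the description field of the 6 reporter-positive samples names the other reporter and was not used.

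The scale was log2(TPM + 1), and limma 3.58.1 under R 4.3.3 (lmFit, eBayes with trend) was run on genes reaching 1 TPM in 3 or more of the 9 libraries, with all 9 libraries in 1 fit, two-sided, Benjamini-Hochberg adjustment over 10136 genes and calls at adjusted p below 0.05. The script was tested on simulated data. Alternatives were 6 other scalings (1, on other protein-coding genes, chosen after seeing the data), pseudocounts of 0.1 and 5, no filter or a filter at 5 TPM, no trend, a block for the sort label, a fit of the 2 compared populations alone, and each library left out.

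The series text gives 3 mice, each read as 1 sort label, so libraries with the same label would come from the same mouse. The main fit did not use this pairing, and the block for the sort label was 1 of the alternatives. Deviations from the population means correlated at 0.0315 to 0.205 within a label (9 pairs, 1 above 0.1) and at -0.160 to 0.112 between labels. Named were stalk proteins, Rpsa, paralogue sets, the 5 highest and lowest members by mean and by change in each comparison, members called relative to the family, and in each other list up to 4 called genes with the smallest p. Members and lists were chosen with earlier results of these data known. Coordinates are GENCODE M21 (GRCm38) and start windows RefSeq (GRCm38.p6).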

Additional observations from a re-analysis of the deposited data

How the results depend on the processing

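Over 22 alternatives, the 73 members higher in CCR2-RFP against double-negative cells became 47 with reference genes and 47 with other protein-coding genes, and 62 to 76 without 1 library. Members lower there, 0, became 1 with 5 scalings, without trend and with only the 2 populations, and 0 to 1 without 1 library. The median log2 fold change of 0.86 moved to 0.65 without Siglece, Rn18s, mitochondrial and ribosomal protein genes, 0.53 with reference genes, 0.55 with other protein-coding genes and 0.56 with quantile normalization (0.74 to 0.98 without 1 library, the last without double-negative 2B). The ratio of summed TPM, 1.77, moved to 1.41, 1.42 and 1.44 with the last 3.

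In CX3CR1-GFP against double-negative cells, the 1 member called lower became 0 under the 6 scalings, without filter, with the replicate block, without trend, with only the 2 populations and without any 1 library (0 to 0). The median of -0.15 turned to 0.089 with listed symbols rescaled and 0.046 with reference genes, and was -0.030 with quantile normalization; the ratio of 0.881 became 1.05 and 1.02 with the first 2 of these.

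In CX3CR1-GFP against CCR2-RFP cells, the 77 members lower became 40 with reference genes, with 1 higher (0 to 1 without 1 library). With reference genes 7.66% of all genes tested were called lower and 21.8% higher, beside 17.3% and 8.96% with the deposited TPM. The members' median of -1.03 moved to -0.68 (listed symbols), -0.72 (without the genes named above), -0.49 (reference), -0.62 (protein-coding) and -0.61 (quantile), and the ratio of 0.499 to 0.646, 0.618, 0.724, 0.662 and 0.666 in that order. The 6 members called relative to the family became 3 without filter, 2 without trend and 2 to 6 without 1 library, where leaving out CCR2-RFP 1 gave 2, CCR2-RFP 2A gave 3 and CCR2-RFP 2B gave 2. The cause was not tested.

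With the replicate block, calls on members changed for Rpl34 and Rps27 and, relative to the family, for Rpl41 and Rpl7l1, with their values given above, and for no other member. Depth is unknown, and values near 1 TPM (Rps4l, Rpl3l) depend on the pseudocount.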

Other observations

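Of 58 snoRNA genes that lie inside members, 24 were listed in the table, and their values did not all follow those of the host. Snora52, inside Rplp2, was 40.5, 46.0 and 59.3 TPM in the double-negative libraries, 156, 134 and 74.9 in the CCR2-RFP ones and 67.3, 76.2 and 48.5 in those of CX3CR1-GFP. Snord100, inside Rps12, read 54.6, 103 and 96.5 TPM in the double-negative libraries and 84.4, 53.0 and 64.0 in the CCR2-RFP ones, which overlap. Snord83b, inside Rpl3, held 888, 939 and 1394 TPM in the double-negative libraries, 1987, 985 and 1266 in the CCR2-RFP ones and 1473, 802 and 2365 in those of CX3CR1-GFP. How a TPM for so short an RNA relates to reads of the host's intron is not given in the sources used here. These genes were chosen after their values were seen.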
